A study of Mus musculus with 7 samples.

Results

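The strength of C-MYC binding was compared with the strength of RNA polymerase II (POLII) binding along the genome of iMOP cells. Peaks of the 2 C-MYC and the 2 POLII replicates were joined wherever they overlapped by 1 bp or more, and each resulting stretch is called a region. This gave 103630 regions from 4 of the 7 samples of the series. Merging all 6 lists of peaks, SOX2 included, would give 115440 regions. The signal of a list in a region is the number of its tags there scaled to a total of 1000000 tags in all its peaks, written as CPM. C-MYC presence means that the region holds a C-MYC peak, and C-MYC length is the summed length of those peaks.

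iMOP stands for immortalized multipotent otic progenitor, a mouse line derived from progenitors of the inner ear with a *c-Myc* retrovirus. Every sample came from this line, proliferating as floating otospheres with 20 ng/ml of bFGF, so the retroviral origin is common to both sides of the comparison. Chromatin was immunoprecipitated with an antibody against POLII or against C-MYC, with 2 biological replicates each, and the DNA was sequenced. The input DNA sample is not analysed here. The coordinates are those of the mm9 build, as the submitters' processing notes name it. No annotation of that build was used here, so regions are given by position and not by gene.

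POLII transcribes the protein-coding genes. It is loaded at promoters, often pauses shortly downstream and then moves through the gene body, so that a POLII peak can be narrow at a start site or broad over a transcribed gene. C-MYC is a basic helix-loop-helix transcription factor that binds DNA with its partner MAX, mostly in promoters and enhancers that are already open. It promotes growth and proliferation, and one known action is to help paused POLII move into elongation. ChIP-seq averages over all cells of a sample, so a higher share of occupied cells and a denser occupancy in each cell cannot be told apart.

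The C-MYC lists held 42435 and 44146 peaks with 2858772 and 3152430 tags. The POLII lists held 53528 peaks with 1705241 tags in replicate 1 and 31796 peaks with 4488517 tags in replicate 2. The files give tags within peaks and no total of reads, which limits depth to the former. The C-MYC replicates followed each other closely. Over the 35632 regions with a peak of both, the slope of log2 signal in replicate 2 on replicate 1 was 0.98, Spearman's rho was 0.975 and the difference had an SD of 0.29 on the log2 scale. The POLII replicates did not follow each other. Only 5360 regions held both, rho between their signals was -0.068, and 45210 regions (43.6% of all) held a peak of POLII replicate 1 and nothing else. Every result is therefore given for each POLII replicate apart. Regions are not replicates, so slopes and correlations over regions are descriptions without a p-value, and the error given is the SD between the 2 C-MYC replicates.

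C-MYC was present more often where POLII replicate 2 was stronger. The 31649 regions with a peak of POLII replicate 2 were ranked by POLII signal and cut into 10 classes of equal size, the deciles. In the lowest decile, 32.9% held a peak of C-MYC replicate 1 (95% Wilson interval 31.3 to 34.5) and 36.0% a peak of C-MYC replicate 2 (34.3 to 37.7). The shares were 69.5% and 70.5% in the fifth decile. They reached 95.6% (94.8 to 96.3) and 95.01% (94.2 to 95.7) in the highest. Presence was higher in each decile than in the one below it in both C-MYC replicates. Between the lowest and the highest decile it differed by 60.9 ± 2.6 percentage points (SD, n = 2 C-MYC replicates). With only the 50% of each list that scored highest, the difference was 32.5 percentage points. Over all deciles, 68.1% of the regions held both C-MYC replicates, 6.54% held 1 and 25.4% held none. POLII signal had a median of 23.6 CPM in regions with both C-MYC replicates and of 7.35 CPM in regions with none.

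**Figure D1:**
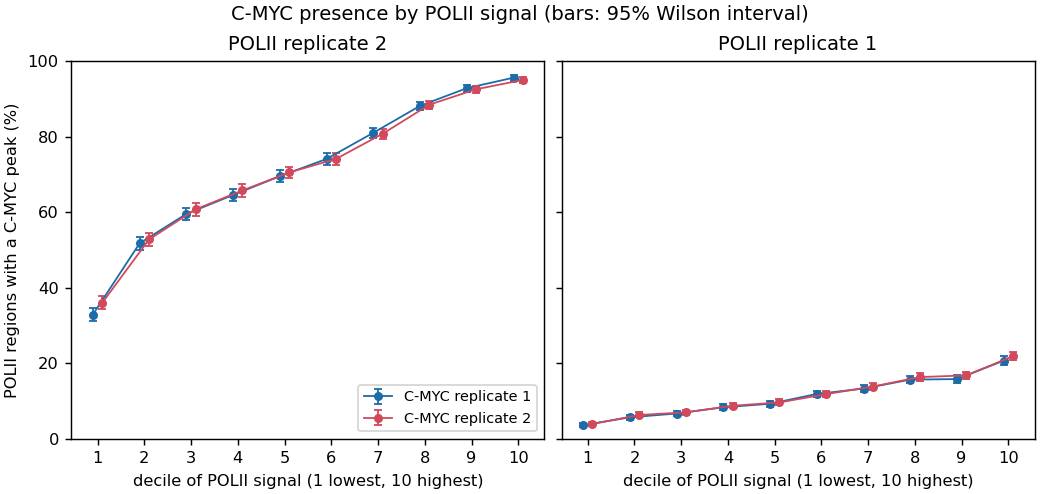
Share of POLII regions with a C-MYC peak (y axis, percent) by decile of POLII signal (x axis), for POLII replicate 2 (left) and POLII replicate 1 (right). Points are the C-MYC replicates and bars are 95% Wilson intervals, which cover counting only. The shares run from 32.9% and 36.0% to 95.6% and 95.01% for POLII replicate 2, and from 3.59% and 3.91% to 20.7% and 21.9% for POLII replicate 1.

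Because POLII peaks were longer in the higher deciles, with a median of 356 bp in the lowest and 1777.5 bp in the highest, presence was also counted in a window of 1 size. A C-MYC summit lay within 500 bp of the strongest POLII summit in 33.0% and 36.1% of the regions of the lowest decile. In the highest decile the shares were 84.5% and 84.0%, and in the ninth 86.1% and 85.3%. The rise was thus smaller with the fixed window, 49.7 ± 2.5 percentage points, and it levelled off between the ninth and the highest decile.

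C-MYC signal rose with POLII replicate 2 signal, by less than POLII itself when regions were ranked by POLII. The median POLII signal was 3.56 CPM in the lowest decile and 107 CPM in the highest, 29.9 times as much. Where C-MYC was present, its median was 6.50 ± 0.21 CPM in the lowest decile, 18.6 ± 0.12 in the fifth and 65.6 ± 0.29 in the highest. The highest decile was 10.1 ± 0.29 times the lowest. POLII is the ranked quantity here, so part of its wider range is built in. When regions with both C-MYC replicates were ranked by mean C-MYC signal, the C-MYC median went from 4.14 to 83.4 CPM. The POLII replicate 2 median then went from 4.90 to 80.7 CPM. Over the 22468 and 22681 regions with both peaks, the slope of log2 C-MYC on log2 POLII was 0.59 and 0.60, with rho of 0.721 and 0.729. A doubling of POLII signal went with 1.51 ± 0.0057 times the C-MYC signal (SD, n = 2). This SD covers the C-MYC replicates only, and the mean slope of 0.60 was 0.34 with the highest fold enrichment in place of tags and 0.82 with the reduced major axis in place of least squares. The median rose at every step between neighbouring deciles in both C-MYC replicates, by more than the replicates differed from each other.

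**Figure D2:**
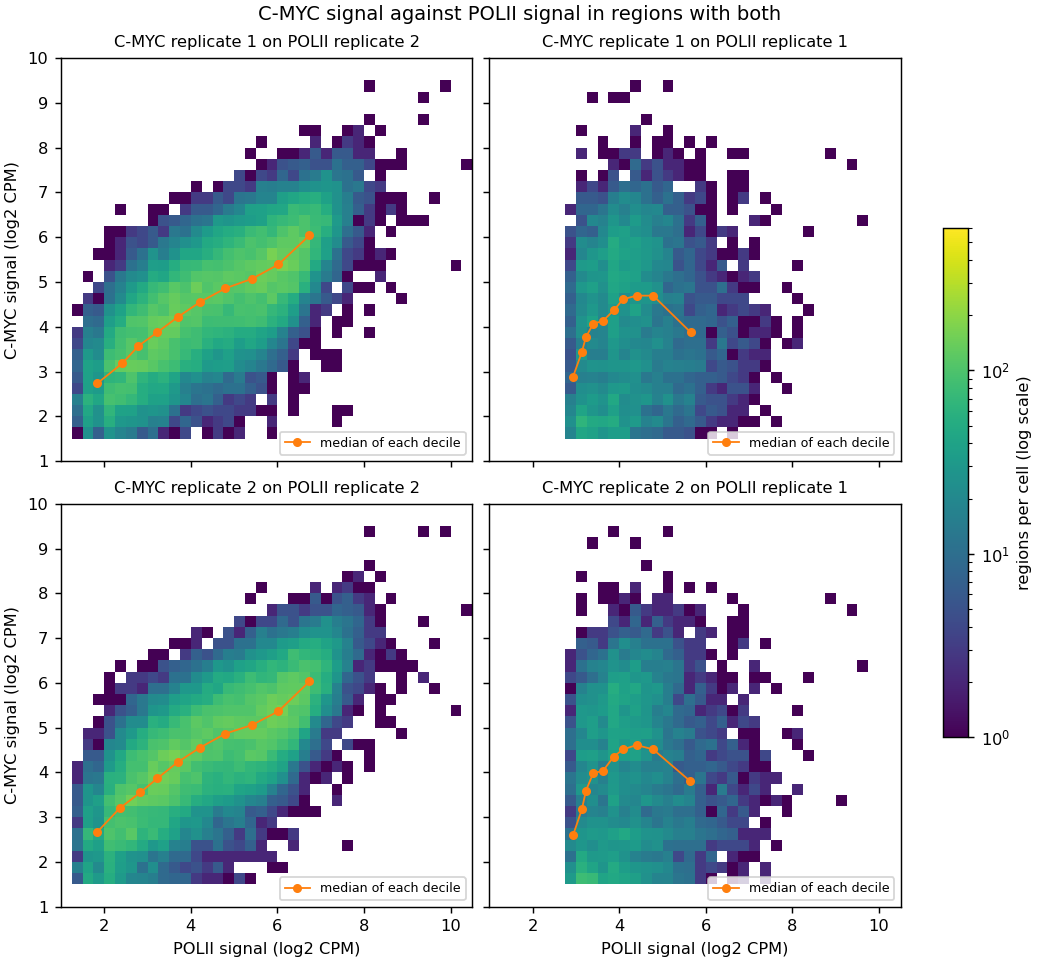
C-MYC signal (y axis) against POLII signal (x axis) in regions with a peak of both, each as log2 of CPM. Colour is the number of regions per cell on a log scale, and orange points join the medians of the deciles. The cloud follows a slope of 0.59 and 0.60 on POLII replicate 2 (left) and of 0.15 and 0.15 on POLII replicate 1 (right).

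The rise was not even along the range. Local slopes between the medians of neighbouring deciles lay between 0.70 and 1.05 up to the fifth decile. They then fell to 0.34 and 0.31 between the seventh and eighth deciles, where POLII signal went from 27.8 to 42.6 CPM and C-MYC only from 29.1 ± 0.11 to 33.4 ± 0.19. Between the ninth and the highest decile the local slopes were 0.91 and 0.93, and C-MYC went from 41.6 ± 0.52 to 65.6 ± 0.29. Both C-MYC replicates showed this flatter middle and steeper top. The fitted slope was 0.72 and 0.75 in the lower 5 deciles and 0.57 and 0.57 in the upper 5. Peak lists hold no value below the smallest peak called, 9 tags in both C-MYC lists. In the lowest decile, 47.4% and 43.0% of the C-MYC values lay within 2 times that smallest peak, against 0.132% and 0.0998% in the highest. What this lower limit adds to the slope in the lower deciles was not tested, and in the upper 5 deciles, where few values lie near it, the slope was 0.57.

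**Figure D3:**
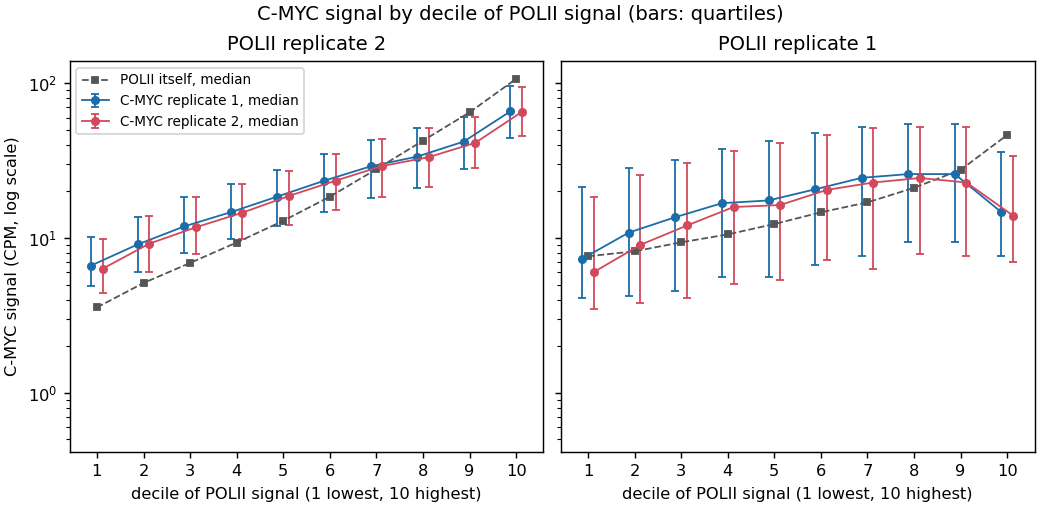
Median C-MYC signal (y axis, CPM, log scale) by decile of POLII signal (x axis) for POLII replicate 2 (left) and POLII replicate 1 (right). Bars are the quartiles over regions with a C-MYC peak, and dashed squares are the median of POLII itself. C-MYC rises from 6.50 to 65.6 CPM on the left, and on the right it reaches 25.2 in the eighth decile and lies at 14.3 in the highest.

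At a given POLII signal, C-MYC signal still varied over several fold, and the variation was shared by the C-MYC replicates. The residuals from the fitted line had an SD of 0.87 and 0.86 on the log2 scale, against 0.27 for the difference between the residuals of the replicates. The residuals of the 2 replicates correlated over 21540 regions with Pearson's r of 0.949, across regions of the same cell line, and lay on the same side of the line in 91.4%. Most of the scatter about the POLII line was therefore common to both C-MYC lists and larger than the difference between them.

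The balance of the marks shifted from C-MYC to POLII along the deciles. The median log2 ratio of C-MYC to POLII share was 0.92 ± 0.027 in the lowest decile, 0.065 ± 0.022 in the seventh and -0.80 ± 0.0017 in the highest. This ratio holds POLII on both axes, so some fall with POLII is built in. The difference between the highest and the lowest decile was -1.72, and -1.12 after quantile normalization. Regions with POLII replicate 2 held 77.3% and 77.1% of all C-MYC tags in peaks. The highest decile alone held 23.2% and 22.8% of the C-MYC tags and 39.0% of the POLII tags.

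C-MYC peaks were also longer where POLII replicate 2 was stronger. The median C-MYC length was 477 bp and 506 bp in the lowest decile and 1510 bp and 1594.5 bp in the highest, 3.16 ± 0.010 times as long, while POLII length was 4.99 times as long. The slope of log2 C-MYC length on log2 POLII signal was 0.31 and 0.31, or 1.24 ± 0.00078 times the length for each doubling of POLII. Signal rose by more than length. C-MYC tags per kb of C-MYC peak were 3.02 and 3.24 times as high in the highest decile as in the lowest. The fold enrichment that the authors listed for the C-MYC peaks went the other way, with a median of 14.7 and 14.1 in the lowest decile and 9.78 and 9.66 in the highest. When POLII was ranked by its highest fold enrichment in place of tags, the length slope was -0.072 ± 0.0044, so the direction for length depends on the measure of POLII. With the reduced major axis in place of least squares the length slope was 0.47. Among regions with both, the distance was taken between the summits of the strongest POLII peak and the strongest C-MYC peak. Its median was 38 bp and 40 bp in the lowest decile and 106 bp and 109.5 bp in the highest.

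**Figure D4:**
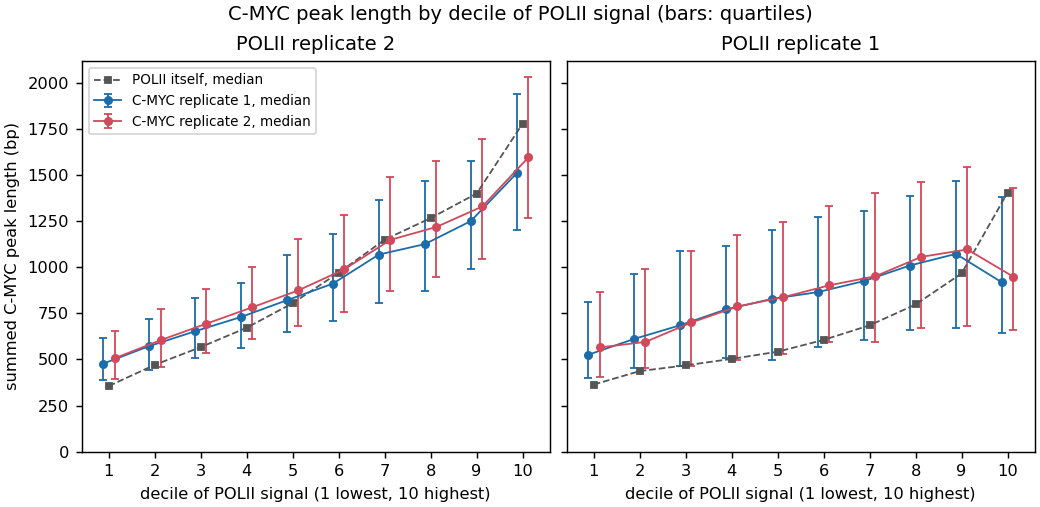
Median summed C-MYC peak length (y axis, bp) by decile of POLII signal (x axis) for POLII replicate 2 (left) and POLII replicate 1 (right). Bars are the quartiles over regions with a C-MYC peak, and dashed squares are the median POLII length. On the left C-MYC length rises from 477 and 506 bp to 1510 and 1594.5 bp, and on the right it is longest in the ninth decile, at 1072 and 1096 bp.

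Narrow and broad POLII replicate 2 regions of like signal differed in how often and how strongly they held C-MYC. Each decile was split at its median POLII length. In the seventh decile, the narrow side (median 941 bp) held C-MYC in 89.1% of regions in both replicates, and the broad side (median 1421 bp) in 72.9% and 72.4%. From the fourth decile up, C-MYC was present more often on the narrow side in both replicates, and in the lowest and second deciles it was present more often on the broad side. Signal where present showed the reverse order at the top. In the highest decile the median C-MYC signal was 58.1 and 57.7 CPM on the narrow side and 75.2 and 74.5 CPM on the broad side. POLII signal itself was higher on the broad side of that decile, 121 against 98.7 CPM. In the eighth decile, where POLII signal was 41.9 and 43.0 CPM, C-MYC signal was 28.3 and 28.9 against 39.5 and 38.7 CPM. With the 500 bp window the presence gap of the highest decile was wider, at 95.4% and 95.2% on the narrow side against 73.7% and 72.8% on the broad side. In the upper deciles, narrow POLII replicate 2 regions thus held a C-MYC peak more often, and broad ones held more C-MYC tags when they held a peak. Along POLII replicate 1 the order of presence was the reverse. In its seventh decile the shares were 10.2% and 10.6% on the narrow side and 16.4% and 17.1% on the broad side. In its highest decile they were 18.3% and 19.7% against 23.1% and 24.1%. With the 500 bp window the narrow side of that decile was higher, at 14.3% and 15.4% against 11.4% and 12.2%.

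**Figure D5:**
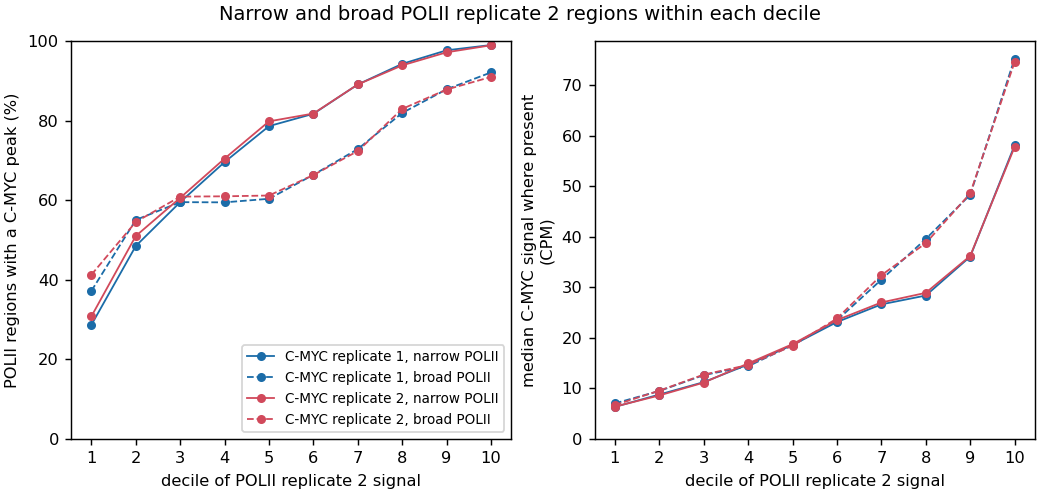
Narrow (solid) and broad (dashed) POLII replicate 2 regions, split at the median POLII length of each decile of POLII signal (x axis). The left panel gives the share with a C-MYC peak (percent) and the right panel the median C-MYC signal where present (CPM). In the seventh decile presence is 89.1% on the narrow side and 72.9% and 72.4% on the broad side, and in the highest decile the signal is 58.1 and 57.7 against 75.2 and 74.5.

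Against POLII replicate 1, C-MYC presence was low and also rose. Of its 53492 regions, 9.67% held both C-MYC replicates, 3.34% held 1 and 87.0% held none. In the lowest decile 3.59% (95% Wilson interval 3.12 to 4.12) and 3.91% (3.42 to 4.46) held C-MYC. In the highest decile the shares were 20.7% (19.6 to 21.8) and 21.9% (20.8 to 23.0), a difference of 17.5 ± 0.62 percentage points. With the fixed window the rise ended earlier, at 12.8% and 13.5% in the eighth decile and 12.9% and 13.8% in the highest. Ranking by fold enrichment in place of tags reversed the difference, to -6.82 ± 0.026 percentage points, and it was 6.88 with tags per base and 9.85 with the 50% of each list that scored highest. The POLII replicate 1 regions that rank high by tags are long, with a median of 1404 bp in the highest decile.

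C-MYC signal rose and then fell along POLII replicate 1 signal. Its median was 6.69 ± 0.93 CPM in the lowest decile, 25.2 ± 1.0 in the eighth and 24.4 ± 2.2 in the ninth. In the highest decile it was 14.3 ± 0.52 CPM, 0.589 ± 0.031 of the ninth. The drop exceeded the spread between the C-MYC replicates and was present in both. A single line therefore describes the relation poorly. Its slope was 0.15 and 0.15 with rho of 0.118 and 0.118. The slope was 0.90 and 1.01 in the lower 5 deciles and -0.11 and -0.12 in the upper 5. In the lowest decile, 47.4% and 49.3% of the C-MYC values lay within 2 times the smallest peak listed, against 19.3% and 18.0% in the highest. What this lower limit adds to these slopes was not tested. Taken as tags per base of peak, the overall slope was -0.29 ± 7.3e-05, and it ranged up to 1.71 with the reduced major axis. C-MYC length followed the same course, from 525 bp and 565 bp in the lowest decile to 1072 bp and 1096 bp in the ninth and 918 bp and 948.5 bp in the highest. Its slope was 0.16 and 0.17, and it was -0.070 ± 0.012 with POLII as tags per base and -0.48 ± 0.034 with fold enrichment, and 0.83 with the reduced major axis. The median log2 ratio of C-MYC to POLII share was -1.97 and -2.06 in the highest decile, against 0.25 and 0.22 in the eighth. Regions with POLII replicate 1 held 19.3% and 19.1% of all C-MYC tags in peaks.

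The POLII replicate 1 regions fell into 2 kinds by whether POLII replicate 2 also had a peak there. The share with POLII replicate 2 was 3.35% in the lowest decile and 19.5% in the highest. In regions with it, C-MYC replicate 1 was present in 59.8% of the lowest decile, 78.4% of the sixth and 66.4% of the highest. In regions without it, the same replicate was present in 1.64% of the lowest decile and 9.59% of the highest. C-MYC replicate 2 gave 2.01% and 10.9%. Presence thus rose along POLII replicate 1 also where POLII replicate 2 was absent, by 8.18 ± 0.66 percentage points, from a far lower level. C-MYC signal differed between these kinds as well. Without POLII replicate 2 the median was 4.20 and 3.81 CPM in the lowest decile and 8.75 and 7.93 in the highest. The smallest C-MYC peaks listed have 3.15 and 2.85 CPM, so the medians of that lowest decile lie near the lower limit. With POLII replicate 2 the median C-MYC signal was 37.3 and 37.6 CPM in the seventh decile, 38.1 and 35.8 in the ninth and 24.8 and 24.1 in the highest. The signal of POLII replicate 2 in those regions had medians of 37.0 CPM in the seventh decile, 24.0 in the ninth and 12.5 in the highest. It thus fell from the seventh decile to the ninth while C-MYC stayed near its level, and both fell from the ninth to the highest. Its part in the fall of C-MYC was not tested.

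The reverse split, of POLII replicate 2 regions by POLII replicate 1, gave a gap in C-MYC presence that turned along the deciles. In the highest decile of its signal, C-MYC replicate 1 was present in 98.4% of the regions that also held POLII replicate 1 and in 94.4% of those that did not. The median C-MYC signal was 69.3 and 64.7 CPM. In the lower deciles the order was the other way for presence, with 25.3% against 34.4% in the lowest, 38.4% against 54.2% in the second, 46.7% against 61.7% in the third and 54.9% against 66.0% in the fourth. The median signal of C-MYC replicate 1 was also lower with POLII replicate 1 from the lowest to the eighth decile. It was 19.2 against 23.8 CPM in the sixth and 25.5 against 30.1 CPM in the seventh. Among the regions of POLII replicate 2 without POLII replicate 1, the difference in presence between the highest and lowest deciles was 57.7 ± 2.8 percentage points.

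Seen from C-MYC, strong C-MYC regions nearly always held POLII replicate 2. The 35632 regions with both C-MYC replicates were ranked by mean C-MYC signal. POLII replicate 2 had a peak in 16.2% of the lowest decile (95% Wilson interval 15.1 to 17.5), 57.1% of the fifth and 92.9% of the highest (92.0 to 93.7). POLII replicate 1 had a peak in 14.1% of the lowest decile, 9.99% of the third and 25.2% of the highest. POLII signal in those regions rose from 4.90 to 80.7 CPM for replicate 2 and lay between 14.1 and 20.5 CPM for replicate 1. No POLII list had a peak in 12680 of the C-MYC regions (35.6%), and their median C-MYC signal was 8.395 and 8.56 CPM. The 1412 regions (3.96%) with POLII replicate 1 alone were weaker, at 7.35 and 7.30. The 17779 regions (49.9%) with POLII replicate 2 alone held 24.1 and 24.4 CPM, and the 3761 (10.6%) with both POLII replicates held 33.2 and 33.0. The fold enrichment of the C-MYC peaks lay between 10.3 and 11.03 in all 4 classes.

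The presence of SOX2, the other transcription factor of the series, also rose along POLII replicate 2. SOX2 replicate 1 was present in 31.9% of the lowest decile and 95.1% of the highest, and SOX2 replicate 2 in 30.5% and 77.9%. Along POLII replicate 1 the shares were 6.47% and 32.5%, and 2.82% and 15.0%. The difference between C-MYC and SOX2 was not tested.

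The 3761 regions with a peak in all 4 lists had a median width of 1464 bp and allow the lists to be compared on the same stretches. C-MYC followed POLII replicate 2 there with slopes of 0.62 and 0.62 and rho of 0.760 and 0.762. It did not scale with POLII replicate 1, with slopes of 0.013 and 0.019 and rho of 0.045 and 0.049. Tag counts of C-MYC against POLII were tested with edgeR's quasi-likelihood test. Of the 3761 regions 0 passed an adjusted p of 0.05 (0% called), the smallest adjusted p was 0.999, and 154 had an unadjusted p under 0.05. The DESeq2 test called 14, of which 2 were higher in C-MYC and 12 lower. The coefficient of variation between replicates was 0.628 in the edgeR fit, in which the disagreement of the POLII replicates enters. Without POLII replicate 1 the test called 2718 regions, 937 higher in C-MYC and 1781 lower, and without POLII replicate 2 it called 2860, 2129 higher and 731 lower. The main direction of the calls thus turned with the POLII library that was kept. Each of those fits has a lone POLII sample that is assumed to vary like the C-MYC samples, so the count then rests on 1 POLII library. Both C-MYC values lay above both POLII values in 795 regions (21.1%) and below both in 440 (11.7%).

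Among the 3761 regions with a peak in all 4 lists, those with the highest values are given as single examples. Their distances from the common line are not given here. The strongest POLII replicate 2 region by tags, chr8:125950069-125954445, had 1311 CPM in POLII replicate 2, 625 in POLII replicate 1, and 193 and 183 in the C-MYC replicates. Its fold enrichment was low, at 2 in POLII replicate 2, 3.23 in POLII replicate 1, and 3.2 and 3.23 in C-MYC. In the highest decile of POLII replicate 2 the median fold enrichment was 10.3 for POLII replicate 2, and 9.78 and 9.66 for C-MYC. The second region by tags, chr6:146298405-146318896, was a single POLII replicate 2 peak of 20492 bp with 1097 CPM. POLII replicate 1 had 44.0 CPM there, and C-MYC had 39.2 and 40.0 in peaks of 732 bp and 758 bp. It had the lowest fitted log2 ratio of C-MYC to POLII of all 3761 regions, -3.85, with an edgeR adjusted p of 0.999. A broad POLII domain with a short C-MYC peak was also seen at chr11:62415453-62423485, where POLII replicate 2 had 780 CPM over 8033 bp and C-MYC had 118 and 124 over 1719 bp and 1431 bp.

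Some of these regions with a high POLII replicate 1 signal had a much lower CPM in POLII replicate 2. In both examples below it still lay above its median of 45.4 CPM over the regions in all 4 lists. The region chr8:125950069-125954445 went the other way, with 625 CPM in POLII replicate 1 and 1311 in replicate 2. At chr2:31304070-31317349, POLII replicate 1 had 751 CPM over 12209 bp and POLII replicate 2 had 65.1 over 1990 bp, while C-MYC had 77.3 and 83.4. At chr1:87487557-87490234 the POLII values were 332 and 59.3 CPM, and the C-MYC values 22.4 and 20.6. The C-MYC replicates were close to each other in both, as they were in most of the named regions. An exception was chr11:77989373-77997640, with 234 CPM over 4348 bp in C-MYC replicate 1 and 71.7 over 1436 bp in replicate 2, and POLII values of 21.7 and 511.

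Among the regions with a peak in all 4 lists, the 5 with the highest mean C-MYC signal all lay on distal chromosome 6. Regions that lack a peak in any list were not ranked, so this does not cover all strong C-MYC regions. The ranking is by tags. The fold enrichment of C-MYC in these 5 regions lay between 3.71 and 8.02. That was below the medians of 10.9 and 10.7 for the C-MYC replicates over the regions in all 4 lists. At chr6:148892120-148896040, C-MYC had 685 and 639 CPM, POLII replicate 1 had 32.3 and POLII replicate 2 had 292. At chr6:146523104-146527754, C-MYC had 605 and 616, and POLII had 13.5 and 624. POLII replicate 2 was thus high in both, well above its median of 45.4 CPM over the regions in all 4 lists, and POLII replicate 1 lay on either side of its median of 18.2 CPM.

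None of the extremes of the fitted ratio passed the edgeR test. The highest log2 ratio of C-MYC to POLII, 2.73, was at chr6:148339046-148342862, with 284 and 278 CPM for C-MYC and 32.8 and 51.5 for POLII. The region chr4:82218801-82219524 had 37.1 and 29.8 against 7.04 and 5.12. At the other end, chr9:2999878-3001222 had 5.25 and 4.44 CPM for C-MYC and 66.3 and 57.0 for POLII, a log2 ratio of -3.66, and chr9:3025197-3026027 near it had 3.85 and 3.17 against 57.5 and 32.3. In these 4 regions both C-MYC replicates lay on the same side of both POLII replicates. They were chosen by the ratio of these same values, so this order is largely set by the choice. At chr17:56292836-56298317, also among the 5 lowest ratios, C-MYC had 11.5 and 11.7 CPM, between the POLII values of 257 and 8.24.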

How the data were processed

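ChIP-seq peak lists of C-MYC and POLII, 2 biological replicates each, were analysed. The authors called peaks per replicate, without pooling, and deposited the raw count of tags in each peak, not scaled for library size. The deposited score is 10 times the −log10 of the p-value of the peak, at least 50 in every list. The deposited fold enrichment is a linear ratio over a background that is not stated. The build is mm9 per the submitters' processing notes. The aligner, the peak caller and its control are not given in the sources used here, although the column names are those of MACS.

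Peaks sharing at least 1 bp were merged, tags were summed per region and list, and sums were divided by the tags in peaks of the list and scaled to CPM. Deciles were cut by rank of POLII signal. Slopes are least squares on log2 values. Wilson 95% intervals cover counting error only, and tags are reads without molecular identifiers. The smallest listed peak holds 9 tags in C-MYC and 12 in POLII, which is 3.15 and 2.85 CPM in C-MYC and 7.04 and 2.67 in POLII. A region without a peak has no value, so only regions with a peak in all 4 lists entered the count test, edgeR 4.0.16 with Benjamini-Hochberg adjustment, the tags in peaks as library size and DESeq2 1.42.0 as an alternative. Other steps used pandas 2.3.3, numpy 2.4.6 and scipy 1.17.1 in python 3.11.15, and the scripts were tested on simulated data. The counts simulated for the edgeR test varied less between replicates than these data, so they do not show what that test could call here.

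The regions named were the 5 with the highest POLII replicate 1, POLII replicate 2 and mean C-MYC signal, and the 5 at each end of the fitted ratio, all among regions in all 4 lists. Examples from each set are given. Genes were to be named from an mm9 annotation, which was not used here. The members, lists and tests were chosen with earlier results of these data known. Alternatives were other merging, peak selection, scaling, signal measures and fits, a replicate block, and leaving out distal chromosome 6 or each replicate. Limiting the range to the upper 5 deciles, splitting by the other POLII replicate and the 500 bp window were chosen after seeing the data.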

Additional observations from a re-analysis of the deposited data

How the results depend on the processing

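The values were recomputed in 104 combinations of result and setting, of which 49 stayed within the spread between replicates (or, for counts of regions, within 1.5 times), 49 moved by more and 6 changed sign. For POLII replicate 2, signal and presence kept their direction in each setting run. The length slope on POLII replicate 2, and signal, presence and length on POLII replicate 1, changed sign in at least 1 setting. The cause of these changes was not tested.

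Requiring 50% of the shorter peak to be shared gave a signal slope of 0.14 and a presence difference of 16.1 percentage points for POLII replicate 1. With the 50% of each list that scored highest, POLII replicate 1 had a signal slope of 0.067, a presence difference of 9.85, a length slope of 0.13 and a ratio difference of -1.98, and POLII replicate 2 had 0.51, 32.5, 0.30 and -1.58 in the same order. With 31796 peaks from every list these were 0.028, 14.9, 0.12 and -2.25, and 0.55, 66.9, 0.30 and -1.93. The strongest peak in place of the sum gave a signal slope of 0.14 for POLII replicate 1. Quantile normalization gave a signal slope of 0.10, a length slope of 0.14 and a ratio difference of -2.98 for POLII replicate 1, and 0.73, 0.34 and -1.12 for POLII replicate 2. Tags per base gave -0.29, 6.88, -0.070 and -2.04 for the 4 results of POLII replicate 1, and a signal slope of 0.48, a length slope of 0.37 and a ratio difference of -1.36 for POLII replicate 2. The highest fold enrichment gave 0.33, -6.82, -0.48 and -1.08, and 0.34, 52.8, -0.072 and -1.23. The reduced major axis gave signal and length slopes of 1.71 and 0.83, and of 0.82 and 0.47. Leaving out a C-MYC replicate gave signal slopes of 0.145 to 0.150 for POLII replicate 1 and 0.593 to 0.601 for POLII replicate 2.

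Of the settings chosen after seeing the data, the upper 5 deciles gave signal slopes of -0.11 for POLII replicate 1 and 0.57 for POLII replicate 2, and regions with both POLII replicates 0.0065 and 0.65. Presence differences were 8.18 and 57.7 percentage points in regions without the other POLII replicate, and 9.87 and 49.7 for C-MYC summits within 500 bp.

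The count of regions whose C-MYC and POLII shares differ was 0 in edgeR under each of the other settings, from 0 to 2860 when a replicate was left out, where 0 held without either C-MYC replicate and 2718 and 2860 without POLII replicate 1 and 2, and 14 with DESeq2, in which 511 regions had no adjusted p. With the replicate number as a replicate block 0 regions were called (52 at an unadjusted p under 0.05), against 154 without it. Deviations of same-numbered samples did not go together (r of -0.0265 over 3761 regions). The log2 difference between replicates had an SD of 1.89 in POLII and 0.25 in C-MYC over these regions. With 2 samples a side, the POLII deviations mostly hold that disagreement, so this r cannot tell whether same-numbered samples belong together. TMM factors moved the median log2 ratio of C-MYC to POLII from -0.07 to -0.19. The depth of 1705241 to 4488517 tags in peaks and the lowest count listed limit what can be said of weak regions, and 2 replicates that disagree limit what can be said of POLII.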

Other observations

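Chromosome X and distal chromosome 6 left the common line of C-MYC on POLII replicate 2. Of the 701 regions of POLII replicate 2 on chromosome X, 75.0% and 77.3% held C-MYC (95% Wilson intervals 71.7 to 78.1 and 74.1 to 80.3), against 70.9% and 71.5% of the 30792 on the autosomes outside distal chromosome 6. The C-MYC signal in them was lower than the line gave, with a median residual of -0.52 and -0.51 on the log2 scale against 0.031 and 0.029. The share with C-MYC was thus higher on chromosome X than on the autosomes, and the C-MYC signal was lower for the same POLII signal. POLII replicate 1 had 0.435% of its peaks on chromosome X, and the other 3 lists had 2.02% to 2.21%.

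Distal chromosome 6, here chr6:142059447-149000104, had been seen in earlier results of these data as a stretch with many tags. It held 154 regions of POLII replicate 2, of which 70.8% and 75.3% held C-MYC, against 70.9% and 71.5% on the other autosomes. The median POLII replicate 2 signal was higher in this stretch, at 48.0 CPM against 15.1 CPM. In the eighth decile of all POLII replicate 2 regions, with a median of 42.6 CPM, 88.2% and 88.5% held C-MYC. Presence in the stretch was thus lower than in a decile of similar median signal. A comparison at matched POLII signal was not made. The median residual of C-MYC in the stretch was 0.27 and 0.28. The stretch held 303 regions of POLII replicate 1, of which 46.9% and 43.9% held C-MYC, against 10.9% and 11.4% on the other autosomes. Their median residual was 1.53 and 1.69. Leaving out this stretch moved none of the slopes, presence differences, length slopes or ratio differences by more than the spread between the C-MYC replicates.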
